A study of Mus musculus with 6 samples.

Results

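The genes described here are those whose symbols name an alpha-, beta- or gamma-tubulin, a kinesin of the Kif or Kifc series, *Map1a*, *Map1b*, *Map1s*, *Map2*, *Map4*, *Map6* or *Map7*, a stathmin (*Stmn1* to *Stmn4*), a tubulin cofactor (*Tbca* to *Tbce*) or an end-binding protein (*Mapre1* to *Mapre3*). Such symbols numbered 81 among the 23183 of the count tables. They comprised 7 alpha-, 9 beta- and 2 gamma-tubulin symbols, 14 mitotic kinesins, 15 transport kinesins, 15 other Kif symbols, 7 microtubule-associated proteins (MAPs), 4 stathmins, 5 cofactors and 3 end-binding proteins. The other Kif symbols include *Kif1bp*, which encodes a kinesin-binding protein and no motor.

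Microtubules are hollow filaments built from dimers of alpha- and beta-tubulin, and gamma-tubulin starts their growth at centrosomes. Kinesins are motor proteins that use ATP to move along them. Some kinesins carry vesicles and organelles, and others build the mitotic spindle, align chromosomes and divide the cell. Stathmins, tubulin cofactors, end-binding proteins and MAPs act on how much tubulin is free, folded, growing or held in stable filaments. Docetaxel, which the series title names, is a taxane that binds beta-tubulin and holds microtubules in the assembled state.

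The samples were 6 tumours of UV2237M, a murine fibrosarcoma line, each labelled wild type. The 3 untreated tumours (untreated 1, 2 and 3) received nothing, and the 3 treated tumours (treated 1, 2 and 3) received gold nanoclusters on day 1 and day 7 with near-infrared irradiation. No label gives docetaxel to a tumour. The sources used here do not say which host strain or age was used, or whether each tumour came from a separate animal, so p-values measure only the spread between these samples, which may be technical.

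The deposited counts per library ranged from 4680295 to 8019294. Values below are counts per 1e+06 (CPM) on library sizes scaled with edgeR's TMM method. Untreated 2, the shallowest library, stood apart, at a mean distance of 1.21 log2 units from the others, whose own mean distances were 0.605 to 0.721. Results that rest on it are therefore given with and without it. All 8 mesenchymal genes listed as markers of the labelled cell type, such as *Vim* and *Col3a1*, had counts in each library. Untreated 2 was the lowest library for 5 of them and the highest for 1. *Col1a1* read 59.4 CPM there, against 1975 to 4255 CPM in the other libraries. In bulk tumour RNA, fewer cells of a type and less RNA per cell cannot be told apart.

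A filter on low counts left 12517 genes to test, among them 59 of the 81 members. Of the other 22, 6 had no count in any library, which allows up to 0.0747 CPM over the summed depth (3 counts, counting error only). They were *Tuba3a*, *Tuba3b*, *Tubb2a-ps2*, *Kif2b*, *Kif12* and *Kif4-ps*, named because their count was 0. The remaining 16 had between 1 and 47 counts over all libraries.

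Promoter sequences are shown for the 4 mitotic kinesins with the smallest unadjusted p and for the beta-tubulin genes *Tubb5* and *Tubb4b*, because many genes of cell division carry a short element near their start. That element is the cell cycle genes homology region (CHR), searched here as TTTGAA, often with a CCAAT box upstream. The sequences are from RefSeq on GRCm38.p6 (mm10). They run from 250 bases before the annotated start to 30 bases after it, 5′ to 3′ on the gene's strand. Capitals mark TTTGAA and CCAAT or their reverse complements TTCAAA and ATTGG.
Kif14: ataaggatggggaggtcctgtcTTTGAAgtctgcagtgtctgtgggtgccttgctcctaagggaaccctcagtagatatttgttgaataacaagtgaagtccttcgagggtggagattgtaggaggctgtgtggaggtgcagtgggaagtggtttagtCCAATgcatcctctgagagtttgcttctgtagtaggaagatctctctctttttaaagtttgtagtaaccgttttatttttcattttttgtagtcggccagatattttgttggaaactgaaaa
Kif18b: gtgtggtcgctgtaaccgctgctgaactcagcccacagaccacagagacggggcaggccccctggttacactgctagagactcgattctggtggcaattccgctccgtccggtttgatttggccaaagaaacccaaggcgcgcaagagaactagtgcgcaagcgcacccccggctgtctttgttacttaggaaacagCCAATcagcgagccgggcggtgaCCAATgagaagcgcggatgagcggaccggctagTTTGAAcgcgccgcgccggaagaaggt
Kif23: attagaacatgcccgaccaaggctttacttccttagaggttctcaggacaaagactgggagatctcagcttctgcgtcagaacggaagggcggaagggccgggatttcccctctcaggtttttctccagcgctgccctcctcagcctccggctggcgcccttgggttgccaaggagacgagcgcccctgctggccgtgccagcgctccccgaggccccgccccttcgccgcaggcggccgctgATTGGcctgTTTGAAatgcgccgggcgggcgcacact
Kif22: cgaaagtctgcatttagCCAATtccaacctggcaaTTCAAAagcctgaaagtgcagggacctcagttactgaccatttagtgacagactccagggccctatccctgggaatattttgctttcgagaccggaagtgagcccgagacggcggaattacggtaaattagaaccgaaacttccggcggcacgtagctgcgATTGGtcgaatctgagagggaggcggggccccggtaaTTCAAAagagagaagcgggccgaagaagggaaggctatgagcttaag
Tubb5: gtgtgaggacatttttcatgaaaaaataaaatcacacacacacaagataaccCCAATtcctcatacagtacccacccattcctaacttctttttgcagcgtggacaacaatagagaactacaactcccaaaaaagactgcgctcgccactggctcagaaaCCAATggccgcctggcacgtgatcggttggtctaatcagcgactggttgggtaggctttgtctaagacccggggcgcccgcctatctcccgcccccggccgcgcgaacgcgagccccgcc
Tubb4b: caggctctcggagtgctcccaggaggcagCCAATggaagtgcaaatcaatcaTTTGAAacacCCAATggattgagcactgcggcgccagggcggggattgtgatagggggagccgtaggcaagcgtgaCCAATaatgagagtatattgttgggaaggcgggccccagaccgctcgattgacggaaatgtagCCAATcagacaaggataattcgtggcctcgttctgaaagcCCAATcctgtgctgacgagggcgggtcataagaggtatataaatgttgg
These windows lie at chr1:136467598-136467877 on the plus strand (*Kif14*) and, on the minus strand, at chr11:102925095-102925374 (*Kif18b*), chr9:61946770-61947049 (*Kif23*), chr7:127042391-127042670 (*Kif22*), chr17:35838272-35838551 (*Tubb5*) and chr2:25224673-25224952 (*Tubb4b*).

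In *Kif18b* the element began at transcribed base 4, with CCAAT boxes 53 and 30 bases before the start. In *Kif23* it began at transcribed base 3 of the RefSeq annotation, with a reversed CCAAT box 7 bases before the start. *Kif22* held reversed elements 17 and 215 bases before its start, a reversed CCAAT box at 54 bases and a CCAAT box at 233 bases. In *Kif14* the element lay 228 bases and the CCAAT box 92 bases before the RefSeq start. That window begins at 136467598, inside the GENCODE gene, which begins at 136466343 on the same strand. It may therefore not be the promoter of the gene's first start. *Tubb4b* had 5 CCAAT boxes and an element 198 bases before its start, and *Tubb5* had CCAAT boxes at 198 and 90 bases and no TTTGAA in this window.

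Over the whole RefSeq windows of 300 bases (250 before the start and 50 after it), TTTGAA was present on either strand in 11 of the 12 tested mitotic kinesins with a window, or 91.7%. It was present in 0 of 7 transport kinesins, 0 of 4 alpha-tubulins, 1 of 4 beta-tubulins and 20.2% of the 27025 genes in the table. *Kif18a*, named as the 1 exception, held none. The windows of *Kif14*, *Kif2c* and *Kif4*, which held the element, lie wholly inside the GENCODE genes and may not be the promoters of their first starts. The element began within 50 bases of the start in 9 of the 12 (75%) and in 5.72% of all genes. Both TTTGAA and a CCAAT box were present, anywhere in the window, in 8 of the 12, or 66.7%, against 7.97% of all genes, and a CCAAT box alone or with the element was found in 41.1% of all genes. *Kifc1* and *Kifc5b*, whose windows share long stretches of sequence, are both counted in the 11, 9 and 8 of the 12. A match of letters is a description and does not show that a factor binds there.

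Of the 59 tested members, 0 passed edgeR's quasi-likelihood test at a Benjamini-Hochberg adjusted p under 0.05, as did 0% of all tested genes, and the smallest adjusted p was 0.592. DESeq2 called 0 members, against 0.136% of all genes higher and 0.232% lower in treated tumours. Limma-voom with or without sample quality weights also called 0 members, but its share of all genes is not given here. At an unadjusted p under 0.05 edgeR had 3 higher members, *Tubb4b*, *Kif14* and *Kif18b*, against 3.32% of all genes, and 1 lower one, *Kif9*, against 4.85%. DESeq2 had 3 higher and 1 lower, against 4.12% and 6.15% of all genes. Treated and untreated values did not overlap in 9 members that were higher and 3 that were lower, against 10.6% and 10.2% of all genes. A log2 fold change above 0 was found for 44 of the 59, against 49.9% of all genes, and their median was 0.24, against -0.0010 over all genes.

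These counts hung on single libraries. Without untreated 2, 15 members were on the higher side at an unadjusted p under 0.05, against 9.55% of all genes, and 2 on the lower, against 8.85%. Mitotic kinesins made up 9 of the 15. The groups then did not overlap in 21 members higher and 6 lower in treated tumours, against 19.6% of all genes each way, and 40 of 59 lay above 0, against 50.1%. No member passed adjustment without untreated 2, with a smallest adjusted p of 0.227 by edgeR and 0.0827 by DESeq2, which called 0.81% of all genes higher and 1.19% lower. The count of 3 became 0 without untreated 1, 1 without treated 1, 6 without treated 2 and 0 without treated 3. The shares of all genes in these last fits are not given here, so the moves cannot be read as particular to the members. The biological coefficient of variation over all genes was 33.7% with the 6 libraries and 17.3% without untreated 2.

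The tubulin genes were led by *Tubb5*, the widely expressed class I beta-tubulin, and *Tuba1b*, a widely expressed alpha-tubulin. Levels of different genes are compared per kb of the longest GENCODE transcript. The mean over the 6 libraries was 356 CPM per kb for *Tubb5*, 211 for *Tuba1b*, 144 for *Tuba1a*, 109 for *Tubb4b*, 102 for *Tubb6* and 43.6 for *Tuba1c*. Below these, *Tubg1*, the main gamma-tubulin, had 17.6 CPM per kb, *Tubb2a* 11.4, *Tuba4a* 9.93, *Tubb2b* 2.18 and *Tubb4a* 0.857. The ranges of neighbours over the 6 libraries overlapped, except between *Tubb6* and *Tuba1c*, *Tuba1c* and *Tubg1*, and *Tuba4a* and *Tubb2b*. Within libraries, those 3 pairs and *Tubb2b* over *Tubb4a* kept their order in 6 of 6, and *Tubb5* over *Tuba1b*, *Tuba1b* over *Tuba1a* and *Tubg1* over *Tubb2a* in 5 of 6. The order was kept in 4 of 6 for *Tubb4b* over *Tubb6*, 3 of 6 for *Tubb2a* over *Tuba4a* and 2 of 6 for *Tuba1a* over *Tubb4b*. With each gene's median transcript length in place of its longest, 9 of the 10 neighbouring pairs kept their order. *Tuba4a* then rose from 9.93 to 34.0 CPM per kb, above both *Tubb2a* (11.4) and *Tubg1* (23.9). *Tuba1a* and *Tubb4b* were nearly equal, at 144 and 143 CPM per kb.

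**Figure D1:**
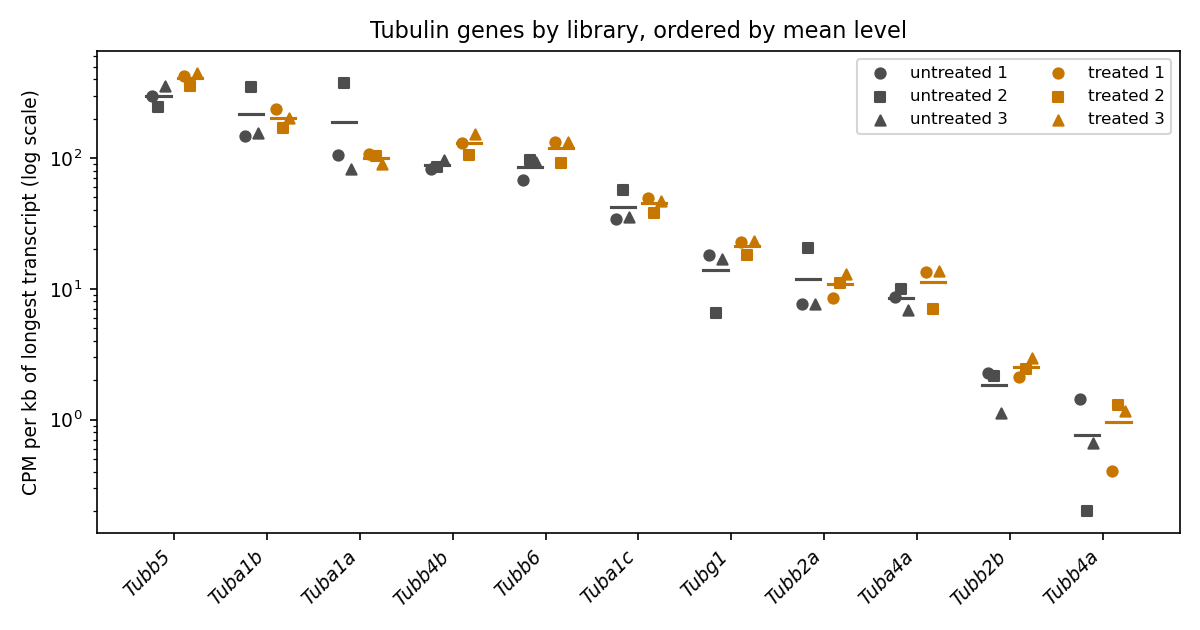
Level of each tested tubulin gene in CPM per kb of its longest transcript (log axis), with 1 point per library, grey for untreated and orange for treated, and a bar at each group's mean. *Tubb5* is at the top at 245 to 450.3 CPM per kb, and untreated 2 is far above the other libraries for *Tuba1a*.

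The mean makeup of the beta-tubulin pool was close between the groups, which for *Tubb5* rested on untreated 2. *Tubb5* held 61.2% ± 5.83 of the summed beta-tubulin level per kb in untreated and 61.1% ± 1.49 in treated tumours (SD, n = 3). *Tubb4b* held 18.0% ± 0.766 against 19.1% ± 1.06, and *Tubb6*, a class V isotype, 17.7% ± 3.52 against 17.5% ± 1.29. The *Tubb5* share was 54.5% in untreated 2. In untreated 1 and 3 it was 65.0% and 64.0%, above the treated shares of 59.7% to 62.7%. For *Tubb4b* untreated 1 and 3 had 17.9% and 17.4%, below the treated shares of 18.5% to 20.3%, and untreated 2 had 18.9%. For *Tubb6* untreated 1 and 3 had 14.6% and 16.9%, overlapping the treated 16.2% to 18.8%. The size of these shares rests on the longest transcript. With the median transcript length the 6-library mean of *Tubb5* rose from 356 to 1083 CPM per kb. That of *Tubb4b* rose from 109 to 143 and that of *Tubb6* from 102 to 135, so the share of *Tubb5* would be larger. In the alpha-tubulin pool *Tuba1b* held 49.7% ± 5.47 in untreated and 56.4% ± 2.42 in treated tumours, and *Tuba1a* 37.5% ± 8.84 against 28.0% ± 3.78. The *Tuba1a* share was 47.1% in untreated 2, against 35.8% and 29.7% in untreated 1 and 3, and the treated shares of 25.4% to 32.3% overlapped those. With the median transcript length the level of *Tuba1b* rose from 211 to 324 CPM per kb and that of *Tuba1a* stayed at 144, so these shares too depend on the length used.

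*Tubb5* (chromosome 17, 35833921 to 35838306, mm10, protein-coding) read 796, 648 and 941 CPM for untreated 1, 2 and 3, while treated 1, 2 and 3 read 1135, 943 and 1193 CPM. Each treated value lay above each untreated one, although treated 2 and untreated 3 were nearly equal. The log2 fold change was 0.46 ± 0.23 (SE from edgeR, adjusted p 0.592). The same order of libraries is used for the values of the other genes. Where a gene's CPM values are followed by a value ± SE in parentheses, that value is its log2 fold change of treated against untreated tumours.

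*Tubb4b* (chromosome 2, 25222160 to 25224702), a class IVb isotype found in most tissues, read 132, 135 and 154 CPM untreated and 208, 168 and 245 CPM treated. Its groups did not overlap either, and the log2 fold change of 0.56 ± 0.22 had an unadjusted p of 0.0348 and an adjusted p of 0.592 by edgeR. *Tubb6* read 119, 170.0 and 165 CPM untreated and 232, 162 and 232 CPM treated, with treated 2 below untreated 2 and 3. Its log2 fold change was 0.47 ± 0.25 (adjusted p 0.597). Over the 6 tested beta-tubulins the median log2 fold change was 0.45, with 5 above 0.

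*Tuba1b* (chromosome 15, 98931425 to 98934565) read 257, 609.9 and 269 CPM untreated and 414, 298 and 355 CPM treated. Untreated 2 was the highest of the 6 libraries, and the treated values lay above those of untreated 1 and 3. The log2 fold change of -0.090 ± 0.37 became 0.43 when untreated 2 was left out. *Tuba1a* (chromosome 15, 98949837 to 98953703), an alpha-tubulin known from neurons, read 192, 671 and 149.8 CPM untreated and 195, 186 and 162 CPM treated. Its log2 fold change of -0.90 ± 0.56 (adjusted p 0.623) became 0.077 when untreated 2 was left out.

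*Tuba1c* read 67.6, 114 and 70.2 CPM untreated and 98.7, 74.9 and 93.7 CPM treated, with a log2 fold change of 0.091 ± 0.27 over the 6 libraries and 0.36 once untreated 2, its highest, was left out. *Tuba4a* read 24.7, 28.1 and 19.5 CPM untreated and 38.1, 19.9 and 38.9 CPM treated (0.42 ± 0.31), with treated 1 and 3 above the other 4 libraries. Of the 4 tested alpha-tubulins, 2 lay above 0 with all libraries and 4 without untreated 2, and the medians were 0.00010 and 0.40.

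Reads of these genes may be split between near-identical copies. Of the runs of 50 bases in the longest transcript, 72.9% for *Tuba1a*, 73.8% for *Tuba1b* and 61.0% for *Tuba1c* also occur in a transcript of another gene. That share was 50.9% for *Tubb4b*, mostly through its pseudogenes, and 49.6% for *Tubb2a* and 39.3% for *Tubb2b*, mostly through each other. The sources used here do not say how reads that match several genes were counted, so the split within these groups is uncertain.

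Among the scarce isotypes, *Tubb2a* read 12.4, 32.8 and 12.3 CPM untreated and 13.8, 17.8 and 20.9 CPM treated (-0.12 ± 0.43, or 0.50 without untreated 2). *Tubb2b* read 4.99, 4.69 and 2.45 CPM untreated and 4.65, 5.30 and 6.47 CPM treated (0.45 ± 0.37). *Tubb4a*, a brain isotype, read 3.18, 0.446 and 1.47 CPM untreated and 0.894, 2.86 and 2.61 CPM treated. The groups overlapped in all 3 of these genes.

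*Tubb3*, the class III isotype of neurons, which has been linked to taxane resistance in cancers, was close to the limit of detection. Its counts were 3, 4 and 2 in untreated and 5, 4 and 17 in treated tumours, with 17 of 35 in treated 3, and it was not tested. *Tubg1* read 32.8, 11.8 and 30.3 CPM untreated and 41.1, 32.6 and 41.9 CPM treated. Untreated 2 was its lowest library, and its log2 fold change of 0.62 ± 0.38 became 0.28 without that library.

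Mitotic kinesins lay above 0 for the most part, without passing the test. With all libraries 11 of the 13 tested genes had a log2 fold change above 0, with a median of 0.35. By edgeR 2 of the 13 were then on the higher side at an unadjusted p under 0.05, against 3.32% of all genes. The groups did not overlap in 3, all higher in treated tumours, against 10.6%. Without untreated 2 all 13 lay above 0, between 0.38 and 0.64 with a median of 0.48. Of the 13, 9 then had an unadjusted p under 0.05, against 9.55% of all genes, and 8 did not overlap, against 19.6%. The adjusted p of the 13 by edgeR without untreated 2 lay between 0.227 and 0.489. Of the 5 libraries other than untreated 2, untreated 1 was the lowest for 13 of 13 genes, and the highest was treated 3 for 11 and treated 1 for 2. Treated 2 was above untreated 3 in 8 of 13.

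**Figure D2:**
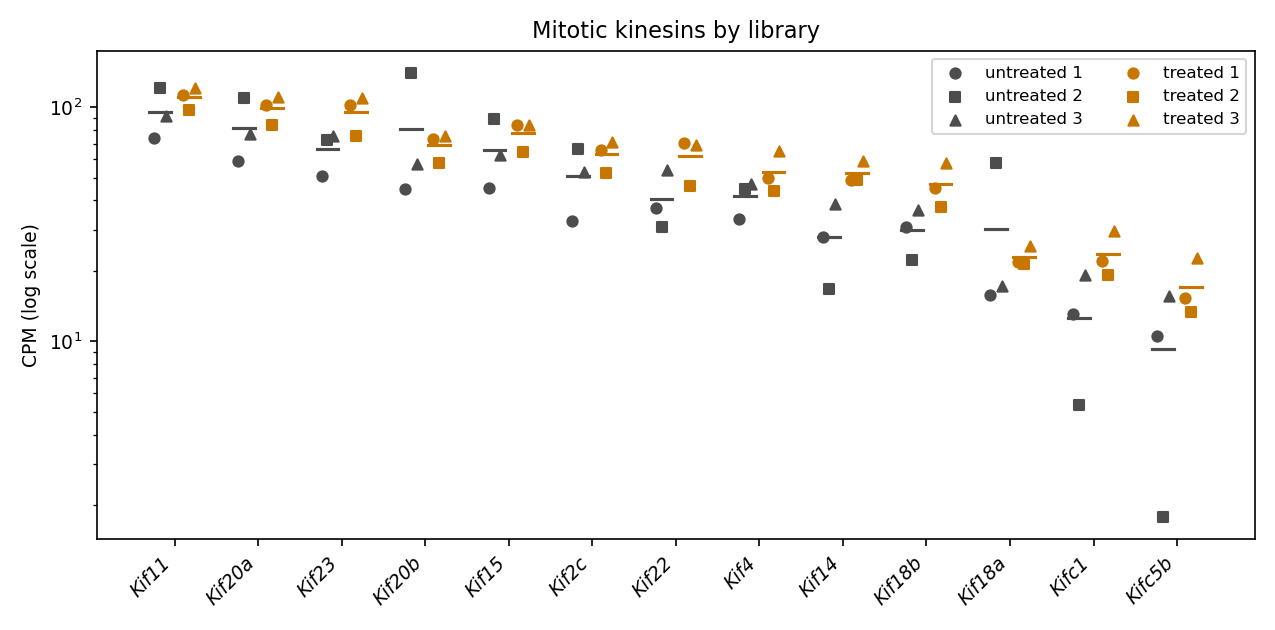
CPM of the 13 tested mitotic kinesins (log axis) in each library, grey for untreated and orange for treated, with a bar at each group's mean. Untreated 1 is below each treated library in all 13 genes, while untreated 2 is the highest of the 6 libraries for 3 genes and the lowest for 5.

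*Kif14* (chromosome 1, 136466343 to 136531511), a motor of the midbody in cytokinesis, read 28.0, 16.7 and 38.8 CPM untreated and 49.0, 49.0 and 58.8 CPM treated. Its groups did not overlap, and the log2 fold change was 0.90 ± 0.31 (unadjusted p 0.0235, adjusted p 0.592 by edgeR), or 0.64 without untreated 2. *Kif18b* (chromosome 11, 102905529 to 102925124), which shortens astral microtubules, read 30.7, 22.3 and 36.4 CPM untreated and 45.1, 37.7 and 58.1 CPM treated. Its groups did not overlap, with treated 2 just above untreated 3, and the log2 fold change was 0.65 ± 0.26 (unadjusted p 0.0432, adjusted p 0.592).

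*Kif23* (chromosome 9, 61915905 to 61946774), the motor of the central spindle, read 51.0, 72.5 and 75.4 CPM untreated and 102, 75.1 and 109 CPM treated. Treated 2 lay a little below untreated 3, and the log2 fold change was 0.53 ± 0.25 (adjusted p 0.592). *Kif22*, which pushes chromosome arms toward the spindle equator, read 37.2, 30.8 and 53.9 CPM untreated and 70.3, 46.0 and 69.3 CPM treated, with treated 2 again below untreated 3.

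*Kif11* (chromosome 19, 37376403 to 37421859), the motor that pushes spindle poles apart, read 73.8, 121 and 91.8 CPM untreated and 113, 97.7 and 121 CPM treated (0.22 ± 0.24, or 0.41 without untreated 2). *Kif20a*, which acts late in division, read 58.7, 109.8 and 77.2 CPM untreated and 102, 84.3 and 111 CPM treated (0.28 ± 0.27, or 0.54). *Kif2c*, a microtubule depolymerase at centromeres, read 32.8, 66.3 and 53.0 CPM untreated and 65.4, 52.4 and 71.4 CPM treated (0.32 ± 0.29, or 0.54). In these 3 genes untreated 2 was within the range of the treated tumours.

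The 2 genes below 0 with all libraries, *Kif18a* and *Kif20b*, are named after their values were seen. *Kif18a*, which damps chromosome movements, read 15.7, 57.6 and 17.2 CPM untreated and 21.8, 21.5 and 25.6 CPM treated. *Kif20b* read 44.6, 140.1 and 57.4 CPM untreated and 73.5, 57.8 and 75.7 CPM treated. In both genes untreated 2 was the highest library by far, and their log2 fold changes of -0.38 and -0.22 became 0.47 and 0.43 without it. *Kifc1*, a minus-end motor that focuses spindle poles, shares 47.6% of its 50-base runs with other genes, nearly all with *Kifc5b*, so the values of that pair are uncertain.

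The 12 proliferation genes listed, *Mki67*, *Top2a* and *Plk1* among them, summed to 1375, 1829.7 and 1847 CPM untreated and 2488, 1976 and 2664 CPM treated, and the mitotic kinesins to 475, 777 and 645 CPM and 815, 662 and 901 CPM. In both sums untreated 1 was the lowest and treated 3 the highest library. Of the 12 proliferation genes, 12 had a log2 fold change above 0, against 49.9% of all genes, and 6 an unadjusted p under 0.05 on the higher side, against 3.32%. Without untreated 2 the latter count was 11, against 9.55%. The part of the share of dividing cells in the kinesin values was not tested.

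Transport kinesins had no common direction. Of 12 tested genes, 7 lay above 0 with all libraries and 4 without untreated 2, with medians of 0.012 and -0.12. By edgeR, 0 of the 12 had an unadjusted p under 0.05 with all libraries in either direction, against 3.32% of all genes higher and 4.85% lower. Without untreated 2, 0 were higher and 1 was lower, against 9.55% and 8.85% of all genes. The difference between mitotic and transport kinesins was not itself tested.

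*Kif5b*, the ubiquitous heavy chain of conventional kinesin, had the highest level per kb of the tested kinesins, 51.4 CPM per kb over the 6 libraries, against 26.6 for *Kif1c*, 26.3 for *Kif1b* and 24.6 for *Kif20a*. It read 251, 407 and 268 CPM untreated and 337, 274 and 323 CPM treated (0.012 ± 0.25, or 0.25 without untreated 2). *Kif1b*, a carrier of mitochondria and synaptic vesicle precursors, read 313, 208 and 283 CPM untreated and 254, 295 and 262 CPM treated (0.012 ± 0.22, or -0.15). The groups overlapped in both, and the sign of the fold change turned with the scaling, to -0.013 for *Kif5b* and -0.0033 for *Kif1b* with DESeq2 size factors.

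*Kif3a*, a subunit of the kinesin that builds cilia, read 67.5, 89.3 and 59.0 CPM untreated and 53.3, 52.5 and 60.1 CPM treated. Treated 3 lay just above untreated 3, and the log2 fold change of -0.38 ± 0.22 (adjusted p 0.610) became -0.20 without untreated 2, its highest library. *Kif1c* read 207, 50.2 and 196 CPM untreated and 197, 200.1 and 216 CPM treated, so that 5 libraries were close and untreated 2 was low. *Kifc3* read 41.9, 18.3 and 37.0 CPM untreated and 44.0, 43.0 and 39.2 CPM treated, and its log2 fold change of 0.37 ± 0.31 became 0.085 without untreated 2.

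*Kifc2*, a scarce kinesin with its motor at the C terminus, read 6.81, 1.56 and 6.01 CPM untreated and 2.15, 4.49 and 2.24 CPM treated. The log2 fold change over the 6 libraries was -0.71 ± 0.59. Without untreated 2 it was -1.11, with an unadjusted p of 0.0265 and an adjusted p of 0.243 by edgeR, and each treated value was below both untreated ones. *Kif1a* and *Kif5c*, transport motors of neurons named because of that role, had 27 and 35 counts over all libraries and were not tested.

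**Figure D3:**
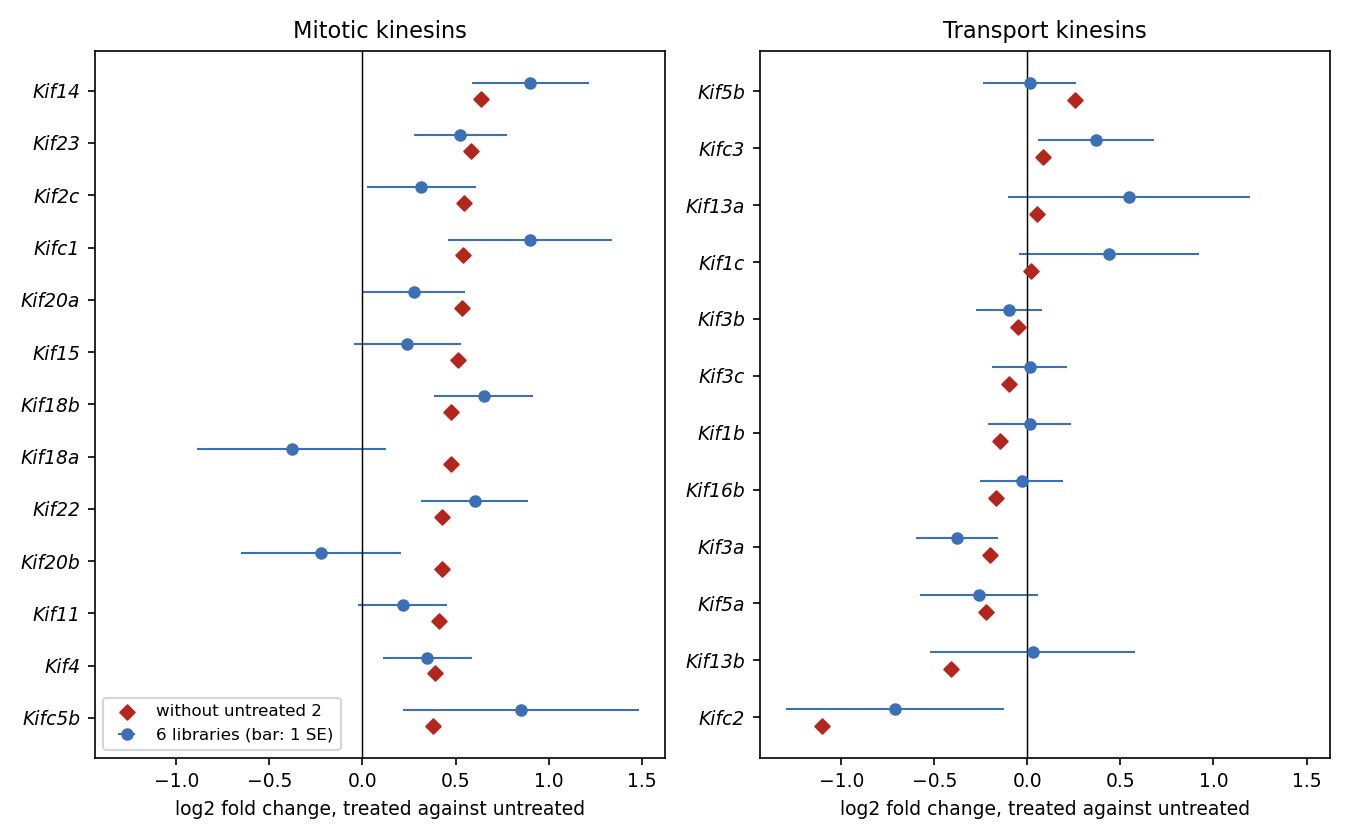
Log2 fold change of treated against untreated tumours for the tested mitotic (left) and transport (right) kinesins. Blue points use the 6 libraries, with bars of 1 SE from edgeR, and red diamonds leave out untreated 2. The red diamonds of the 13 mitotic kinesins lie between 0.38 and 0.64, and those of the transport kinesins between -1.11 and 0.25.

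Of the 9 tested other Kif symbols, *Kif1bp* among them, 1 had an unadjusted p under 0.05 by edgeR, on the lower side, against 4.85% of all genes. *Kif9* (chromosome 9, 110476958 to 110525179), known from cilia and sperm tails, read 4.84, 4.02 and 4.78 CPM untreated and 2.15, 2.58 and 1.86 CPM treated. The groups did not overlap, and its log2 fold change was -1.05 ± 0.33 (unadjusted p 0.0149, adjusted p 0.592 by edgeR), or -1.13 without untreated 2. The 7 markers of ciliated and sperm cells were each at 0 in at least 1 library, *Foxj1* among them, and summed to 0 to 1.82 CPM untreated and 0.622 to 0.952 CPM treated.

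*Kif2a*, a microtubule depolymerase, read 76.1, 78.6 and 84.2 CPM untreated and 104, 88.3 and 101 CPM treated. Its groups did not overlap, with a log2 fold change of 0.29 ± 0.18 (adjusted p 0.623). *Kif24*, which acts at the base of cilia, read 20.9, 4.69 and 21.6 CPM untreated and 24.9, 24.8 and 30.3 CPM treated, also without overlap, and its log2 fold change of 0.75 ± 0.50 became 0.32 without untreated 2. *Kif26b*, an atypical kinesin, read 168, 12.5 and 152 CPM untreated and 125, 146 and 95.6 CPM treated. Its relative *Kif26a* read 2.12, 1.12 and 4.05 CPM untreated and 2.50, 3.94 and 5.72 CPM treated, and the groups of both overlapped.

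In the MAPs untreated 2 stood apart. It was the lowest library for 5 of 5 tested MAPs and for 39.6% of all tested genes. *Map4*, the main MAP outside neurons, read 501, 283 and 452 CPM untreated and 456, 486 and 417 CPM treated. *Map1b*, a MAP of growing axons, read 275, 78.1 and 261 CPM untreated and 286, 278 and 294 CPM treated, without overlap. *Map1a* read 128, 15.2 and 103 CPM untreated and 95.6, 123 and 115 CPM treated, with untreated 2 far below the other 5 libraries.

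*Map1s*, a short relative of those genes, read 66.6, 4.69 and 73.6 CPM untreated and 73.1, 61.2 and 61.0 CPM treated. *Map6*, which keeps microtubules stable in the cold, read 49.5, 16.5 and 46.0 CPM untreated and 56.3, 45.2 and 49.4 CPM treated. The log2 fold changes were 0.14 ± 0.26 for *Map4*, 0.48 ± 0.44 for *Map1b*, 0.44 ± 0.65 for *Map1a* and 0.42 ± 0.39 for *Map6* with all libraries, and -0.079, 0.089, -0.053 and 0.067 without untreated 2. Above 0 lay 5 of 5 MAPs with all libraries and 2 of 5 without untreated 2.

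**Figure D4:**
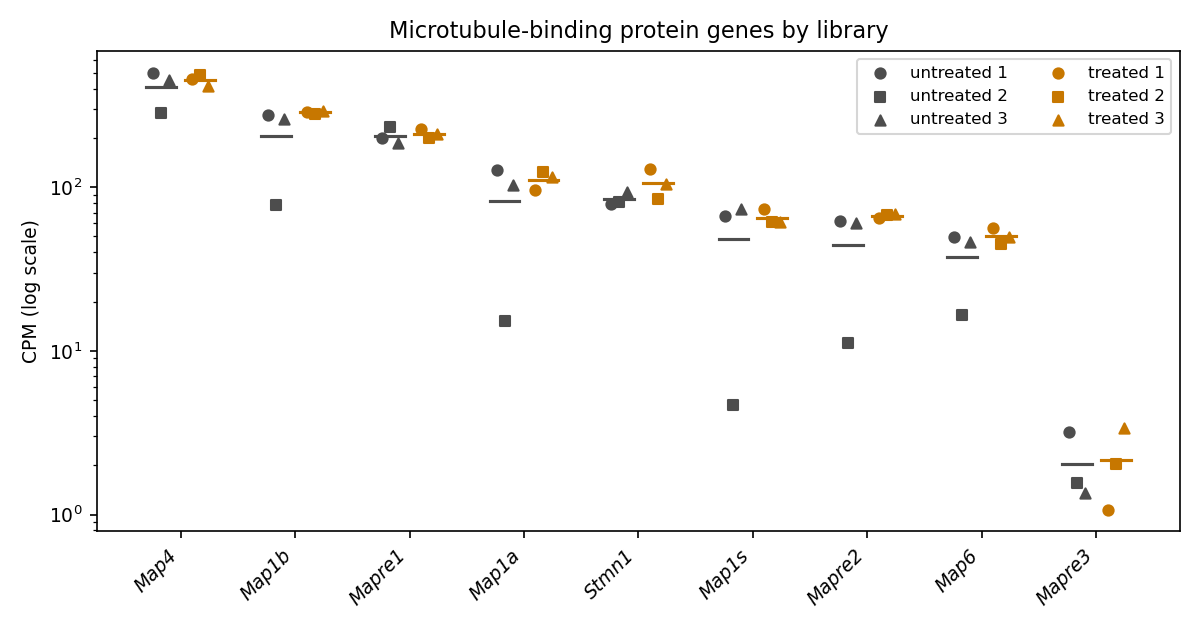
CPM (log axis) of the tested MAPs, end-binding proteins and *Stmn1* by library, grey for untreated and orange for treated, with a bar at each group's mean. Untreated 2 lies far below the other 5 libraries for *Map1a*, *Map1s*, *Map1b*, *Map6* and *Mapre2*, and is the highest for *Mapre1*.

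Transcript GC content and the level in untreated 2 were related across members, with exceptions. Across the 59 tested members, which share that library, the GC content of the longest transcript and the log2 difference of untreated 2 from the other 5 libraries had a Pearson correlation of -0.44 and a Spearman correlation of -0.42. The 30 members at or above the median GC content of 52.0% had a median log2 difference of -1.12, and the 29 below it one of 0.030. Among the exceptions, *Tuba1a*, *Tuba1b*, *Tuba1c*, *Tubb2a* and *Tbcb* lay above the median GC content and had their highest value in untreated 2. Untreated 2 was the lowest library for 29 members and the highest for 16, against 39.6% and 37.3% of all tested genes. With each library corrected for GC content and length, the median log2 fold change was 0.44 for mitotic kinesins, -0.20 for transport kinesins and 0.24 for MAPs.

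*Stmn1*, which binds free tubulin dimers and is abundant in dividing cells, read 78.5, 81.0 and 93.8 CPM untreated and 128, 84.9 and 104 CPM treated. Treated 2 lay between untreated 2 and untreated 3, and the log2 fold change was 0.32 ± 0.22 (adjusted p 0.639). *Stmn1* shares 36.5% of its 50-base runs with other genes, mostly Gm11223. The other stathmins, known from neurons, had 20 (*Stmn2*), 1 (*Stmn3*) and 9 (*Stmn4*) counts over all libraries.

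The tubulin cofactors, which fold and join alpha- and beta-tubulin, had a median log2 fold change of -0.020, or 0.062 without untreated 2. *Tbce* read 26.8, 53.8 and 27.2 CPM untreated and 18.2, 26.4 and 25.7 CPM treated, with no overlap, and its log2 fold change of -0.61 ± 0.33 (adjusted p 0.601) became -0.20 without untreated 2, its highest library. *Tbca* read 52.9, 121 and 52.3 CPM untreated and 72.2, 58.2 and 66.3 CPM treated (-0.20 ± 0.36, or 0.31 without untreated 2). *Tbcd* read 88.3, 79.2 and 91.4 CPM untreated and 103, 91.1 and 89.0 CPM treated (0.13 ± 0.18, or 0.062), and *Tbcc* 11.3, 13.2 and 13.7 CPM and 15.4, 10.7 and 12.7 CPM.

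*Mapre1* (EB1), which marks growing microtubule ends, read 199, 233 and 187 CPM untreated and 226, 199.5 and 211 CPM treated (0.039 ± 0.19, or 0.13 without untreated 2). *Mapre2* read 61.9, 11.2 and 60.4 CPM untreated and 64.7, 67.2 and 68.6 CPM treated. Its groups did not overlap, though 5 libraries lay close together, and its log2 fold change of 0.58 ± 0.56 became 0.12 without untreated 2. *Mapre3* read 3.18, 1.56 and 1.35 CPM untreated and 1.07, 2.04 and 3.36 CPM treated (0.11 ± 0.56, or -0.026 without untreated 2).

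*Map2*, a MAP of dendrites, had 24, 16 and 5 counts in untreated and 1, 1 and 0 counts in treated tumours. It was too scarce to test.

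The 8 keratinocyte markers summed to 1330.1, 623 and 5.40 CPM untreated and 20.02, 4.22 and 65.3 CPM treated, with 7 of the 8 at 0 in at least 1 library, *Krt1*, *Krt5* and *Krt14* among them. The 11 neuron markers summed to 11.7 to 17.9 CPM untreated and 9.30 to 10.5 CPM treated, with 10 of the 11 at 0 in at least 1 library. Most of each sum was the remaining gene, *Gap43*, with 13.9, 17.4 and 10.4 CPM untreated and 8.22, 8.98 and 7.09 CPM treated. The difference between the sums is therefore mainly that of 1 gene. The part of these cell types in the *Map2* counts was not tested.

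*Tubb1*, the beta-tubulin of platelets named because of that role, had 3 counts, all in treated 3, while platelet markers summed to 18.3 to 43.8 CPM untreated and 30.1 to 73.0 CPM treated. Schwann cell markers summed to 23.7 to 48.1 and 24.9 to 53.3 CPM, leukocyte markers to 627 to 1474 and 464 to 853 CPM, and skeletal muscle markers to 20.4 to 106 and 3.67 to 461 CPM, the last with its highest value in treated 3.

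Other genes of the microtubule system were counted from fixed lists, in which 0 genes passed adjustment by edgeR. Of 22 spindle and gamma-tubulin ring genes, 18 lay above 0, 3 were on the higher and 0 on the lower side at an unadjusted p under 0.05, against 3.32% and 4.85% of all genes, and the median log2 fold change was 0.16. Without untreated 2, 17 lay above 0, 11 were on the higher and 1 on the lower side, against 9.55% and 8.85%, with a median of 0.26. *Cenpe*, a mitotic kinesin of kinetochores whose symbol does not begin with Kif, read 134, 139.9 and 194 CPM untreated and 237, 212 and 282 CPM treated (0.64 ± 0.23). *Tpx2*, which starts microtubules near chromatin, read 75.8, 67.8 and 109 CPM untreated and 131, 113 and 164 CPM treated (0.69 ± 0.26). Neither gene overlapped between the groups.

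Of 14 subunits of the CCT chaperonin and prefoldin, which fold newly made tubulin and actin, 8 lay above 0 with all libraries and 13 without untreated 2, with medians of 0.15 and 0.43. At an unadjusted p under 0.05, 2 were on the higher side with all libraries and 9 without untreated 2, against 3.32% and 9.55% of all genes. *Pfdn6* read 20.1, 17.9 and 20.4 CPM untreated and 38.1, 25.0 and 33.8 CPM treated (0.73 ± 0.23). *Cct6a* read 211, 209 and 242 CPM untreated and 344, 262 and 340.0 CPM treated (0.51 ± 0.20). In both the groups did not overlap.

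Of 23 tested dynein, dynactin and kinesin light chain genes, 12 lay above 0 with all libraries and 11 without untreated 2. By edgeR with all libraries, 1 was on the higher and 1 on the lower side at an unadjusted p under 0.05, against 3.32% and 4.85% of all genes. At an unadjusted p under 0.05 were *Klc4*, a kinesin light chain, with 30.3, 37.9 and 28.6 CPM untreated and 17.5, 25.6 and 19.5 CPM treated (-0.62 ± 0.23), and *Dync1li1*, a dynein light intermediate chain, with 38.4, 29.0 and 44.3 CPM untreated and 54.9, 46.7 and 64.4 CPM treated (0.57 ± 0.24). Of 19 tested plus-end, minus-end and severing genes, 15 lay above 0 with all libraries and 9 without untreated 2, and untreated 2 was the lowest library for 14. The smallest p among them belonged to *Dclk1* (0.84 ± 0.34), a kinase that binds microtubules, and *Clasp2* (0.46 ± 0.22), which holds growing ends. Of 17 tested tubulin-modifying enzymes, 0 had an unadjusted p under 0.05 by edgeR with all libraries, against 3.32% of all genes higher and 4.85% lower. Without untreated 2, 1 was on the higher and 1 on the lower side, against 9.55% and 8.85%. With all libraries the smallest p belonged to *Ttll5* (-0.51 ± 0.22) and *Ttll4* (0.45 ± 0.22), both glutamate ligases of tubulin. *Tube1*, epsilon-tubulin of centrioles, had a log2 fold change of 0.71 ± 0.29 without overlap of its groups, and *Tubd1*, delta-tubulin, one of 0.037 ± 0.32, or -0.13 without untreated 2.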

How the data were processed

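The authors deposited whole-number counts for each gene symbol, with 1 table for each sample, and these raw counts were used unchanged. TopHat (no version) and build mm10 come from the submitters' processing notes. Which program counted the reads, whether it used the strand and which annotation it used is not given in the sources used here, so antisense and overlapping genes can share counts. The library kit is directional, per the labels' protocols.

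Groups were taken from the labels. edgeR 4.0.16 in R 4.3.3 filtered genes (filterByExpr, smallest count 10), scaled with TMM and compared the groups by quasi-likelihood, 2-sided, with Benjamini-Hochberg adjustment over 12517 genes. The SE is the size of the log2 fold change over the root of F. Alternatives were DESeq2 1.42.0, limma 3.58.1, other scalings and filters, the replicate number as a block, each library left out, and a loess correction for GC content and length (span 0.3). Positions, lengths and GC content come from GENCODE M21, to which 22148 symbols were joined directly and 665 by a RefSeq synonym. Checked on simulated counts of 12517 genes for this comparison, edgeR recovered 3 of 100 genes changed 2-fold and 54 of 100 changed 4-fold, with 6 false calls. Library pairs differed by more than sampling noise, with a chi-square per gene of at least 5.64.

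The members, role groups and gene lists were chosen with earlier results of these data known. Values in each library are given for the tested tubulins, and in each other role group for the 4 members with the smallest p and the 2 with the highest mean CPM. They are also given for 13 genes fixed by name and for the 2 genes with the smallest p of each further list, with fold changes only for some of the last.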

Additional observations from a re-analysis of the deposited data

How the results depend on the processing

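No alternative that was run called a member at an adjusted p under 0.05. At an unadjusted p under 0.05 the 3 higher members became 17 with limma-voom sample quality weights, 6 with the GC and length correction and 0 to 15 with 1 library left out. The 1 lower member became 2 with quality weights, 2 with no filter, 0 with a mean of at least 5 CPM and 0 to 2 with 1 library left out. Members whose groups did not overlap numbered 10 to 21 higher and 3 to 6 lower with 1 library left out, and 1 lower with a mean of at least 5 CPM. The upper ends of the ranges with 1 library left out were reached without untreated 2. There the share of all genes rose too, from 3.32% to 9.55% higher at an unadjusted p under 0.05 by edgeR. For non-overlap it rose from 10.6% to 19.6% higher and from 10.2% to 19.6% lower. The other counts have no share of all genes beside them and cannot be read as particular to the members. The median log2 fold change of mitotic kinesins lay between 0.20 and 0.50 over the alternatives. The transport kinesin median was -0.20 with the GC and length correction and -0.12 to 0.065 with 1 library left out, the stathmin median 0.99 with no filter, which adds scarce genes, and the end-binding protein median -0.026 to 0.58 with 1 library left out. With median transcript lengths 9 neighbouring tubulin pairs kept their order, while *Tuba4a* moved above *Tubb2a* and *Tubg1*. The cause was not tested.

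The log2 fold changes of 35 members named by the rule were computed under each alternative, and 11 turned direction in at least 1. *Kif18a* and *Kif20b*, outside these 35, also turned without untreated 2, to 0.47 and 0.43. With 1 library left out the 11 ranged from -0.32 to 0.43 for *Tuba1b*, from -1.25 to 0.077 for *Tuba1a*, from -0.054 to 0.36 for *Tuba1c*, from -0.36 to 0.50 for *Tubb2a*, from -0.13 to 0.25 for *Kif5b*, from -0.15 to 0.13 for *Kif1b*, from -0.079 to 0.29 for *Map4*, from -0.053 to 0.90 for *Map1a*, from -0.41 to 0.31 for *Tbca*, from -0.026 to 0.13 for *Mapre1* and from -0.36 to 0.58 for *Mapre3*. Quality weights gave 0.42 for *Tuba1b*, 0.052 for *Tuba1a*, 0.49 for *Tubb2a*, -0.14 for *Kif1b*, -0.068 for *Map4*, -0.0066 for *Map1a* and 0.31 for *Tbca*. Limma-voom gave 0.024 for *Tuba1b* and 0.095 for *Tubb2a*. The GC and length correction gave -0.049 for *Tuba1c*, -0.26 for *Kif1b*, -0.26 for *Map4* and 0.12 for *Tbca*. DESeq2 without untreated 2 gave 0.43 for *Tuba1b*, 0.078 for *Tuba1a*, 0.50 for *Tubb2a*, -0.15 for *Kif1b*, -0.078 for *Map4*, -0.053 for *Map1a*, 0.31 for *Tbca* and -0.046 for *Mapre3*. *Kif5b* and *Kif1b* had -0.013 and -0.0033 with DESeq2 size factors, -0.030 and -0.019 with the upper quartile, and -0.012 and -0.0037 with DESeq2.

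No pairing of samples by replicate number was seen in the values. With so few libraries in each group and untreated 2 far from the others, the check cannot exclude a pairing. Deviations of same-numbered libraries correlated at -0.18, -0.11 and 0.11, and 2 of 6 libraries correlated best with their own number. With the replicate number as a block, 4 members were higher and 1 lower at an unadjusted p under 0.05, the mitotic kinesin median was 0.36, and *Tuba1b* had 0.028 and *Tubb2a* 0.012. The share of all genes in the block fit is not given here, so its counts cannot be read as particular to the members. The scarce isotypes rest on few counts, and a count of 0 in a single library allows up to 0.374 to 0.641 CPM, counting error only.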
